A study of Mus musculus with 7 samples.

Results

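The genes described here encode Polycomb proteins, trithorax-type methyltransferases and histone demethylases, 38 genes chosen by name out of 21887 protein-coding genes of the mouse RefSeq table (GRCm38.p6). All 38 were matched, and they fell into 10 groups by complex. For each gene, peaks were collected that overlapped the gene body or the 10 kb on either side, and peaks whose midpoint lay within 1 kb of an annotated gene end. Oct1 and Oct4, encoded by Pou2f1 and Pou5f1, are related transcription factors with POU domains, mapped here by chromatin immunoprecipitation and sequencing (ChIP-seq). Per the labels, all cells were of parental genotype, and 4 ChIP libraries were used, 1 per group: Oct1 in mouse embryonic stem cells (ESCs), Oct4 in ESCs, and Oct1 at day 3 and day 6 after the ESCs were directed towards mesoderm. The 3 input libraries were not analysed here. Mesodermal medium held Bmp4 at first and Rspo3 with LDN-193189, a BMP receptor inhibitor, afterwards. The cultures were profiled in bulk, so a peak in all cells and a peak in some of them cannot be told apart, and peak lists hold no expression by which the cell type could be checked.

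Polycomb and trithorax proteins keep developmental genes off or on through marks on histone H3. Polycomb repressive complex 2 (PRC2) methylates lysine 27, PRC1 ubiquitinates histone H2A, and the KMT2 enzymes in COMPASS-type complexes methylate lysine 4, while the KDM6 and KDM5 families remove these methyl groups. In ESCs both kinds of mark lie together on many lineage genes, which resolve to one state as cells differentiate.

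The ESC lists held 17709 Oct1 and 22817 Oct4 peaks, the day 3 list 4867 and the day 6 list 7758. Each peak had a score given by the authors, without a unit, which served here only to rank peaks within a list, with rank 1 as the highest. The depth of the libraries is unknown, and with 1 library per group no difference between groups could be tested.

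To show what the sequence at these sites looks like, the 250 bases before a start site are printed for 6 genes, 5′ to 3′ on the gene's strand, from the RefSeq promoter table (GRCm38.p6), which held 43 entries for 31 of the 38 genes. Capitals mark 8-mers of the octamer family, the recognition sequence of POU factors, searched on both strands: the octamer ATGCAAAT, ATGCATAT, and ATGCTAAT, which was added after the sequences had been seen. The search covered 300 bases, from 250 before to 50 after the start. Phc2, with its first start at chr4:128654452-128654701 (+) and its second at chr4:128688488-128688737 (+), is shown because it alone among these genes had Oct1 at its own start site in all 3 Oct1 lists. Psmb3 (chr11:97703184-97703433, +), a proteasome subunit gene outside the set, and Kdm2b (chr5:122900368-122900617, −), from the wider list of pathway genes, are shown for the high-ranking Oct1 peaks over them in the ESC and day 3 lists. Suz12 (chr11:79992856-79993105, +), Rnf2 (chr1:151500992-151501241, −) and Cbx8 (chr11:119040914-119041163, −) stand for start sites with Oct1 at day 3 and day 6 but in no ESC list.
Phc2, first start: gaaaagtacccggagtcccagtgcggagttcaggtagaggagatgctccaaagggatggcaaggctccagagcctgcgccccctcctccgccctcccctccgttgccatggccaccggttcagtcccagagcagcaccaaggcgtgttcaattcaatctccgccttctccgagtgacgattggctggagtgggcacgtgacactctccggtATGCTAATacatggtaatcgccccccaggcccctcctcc
Phc2, second start: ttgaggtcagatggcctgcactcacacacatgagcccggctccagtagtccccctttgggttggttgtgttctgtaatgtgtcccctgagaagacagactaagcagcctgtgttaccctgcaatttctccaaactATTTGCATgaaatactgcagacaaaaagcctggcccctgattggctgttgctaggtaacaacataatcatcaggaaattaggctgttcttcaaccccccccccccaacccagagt
Psmb3: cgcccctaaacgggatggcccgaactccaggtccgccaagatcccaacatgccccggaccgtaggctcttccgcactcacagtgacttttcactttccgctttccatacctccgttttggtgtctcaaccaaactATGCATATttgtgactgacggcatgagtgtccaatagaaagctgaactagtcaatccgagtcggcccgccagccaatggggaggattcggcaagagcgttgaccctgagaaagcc
Kdm2b, internal start: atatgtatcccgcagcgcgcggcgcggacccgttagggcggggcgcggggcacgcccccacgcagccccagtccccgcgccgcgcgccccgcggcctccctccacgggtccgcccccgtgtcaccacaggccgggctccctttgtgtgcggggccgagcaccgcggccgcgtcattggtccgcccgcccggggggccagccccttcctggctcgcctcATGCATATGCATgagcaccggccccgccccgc
Suz12: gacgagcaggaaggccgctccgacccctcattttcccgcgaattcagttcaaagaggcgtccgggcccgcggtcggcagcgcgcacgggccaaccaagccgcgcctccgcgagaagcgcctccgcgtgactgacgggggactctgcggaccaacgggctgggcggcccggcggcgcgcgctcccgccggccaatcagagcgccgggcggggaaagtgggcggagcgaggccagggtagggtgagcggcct
Rnf2: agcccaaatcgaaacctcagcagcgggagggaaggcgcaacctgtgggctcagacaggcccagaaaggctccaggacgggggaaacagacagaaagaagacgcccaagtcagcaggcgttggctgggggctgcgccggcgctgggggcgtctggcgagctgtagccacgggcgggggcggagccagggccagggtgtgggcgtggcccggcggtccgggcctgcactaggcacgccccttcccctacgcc
Cbx8: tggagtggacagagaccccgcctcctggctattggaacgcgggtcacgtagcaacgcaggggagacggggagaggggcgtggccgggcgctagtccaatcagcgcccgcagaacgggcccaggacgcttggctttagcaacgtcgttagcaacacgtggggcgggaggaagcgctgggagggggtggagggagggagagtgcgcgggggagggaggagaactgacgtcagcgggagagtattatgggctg

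Positions are counted from the start site, with a minus sign for bases before it. In the first Phc2 sequence ATGCTAAT began at -39, and in the second the octamer lay on the opposite strand, at -115. Psmb3 had ATGCATAT at -115. At the internal Kdm2b start, ATGCATAT occurred on both strands in overlapping copies, at -32 and -28. Suz12, Rnf2 and Cbx8 had none of the 3 sequences in the window, which says only that these letters were not there. Among the 43 promoter entries of the set, the octamer was found in 1 (2.33%, against 1.74% of 32851 promoters in the table), ATGCATAT in 0 (0.770% of all) and ATGCTAAT in 1 (0.919% of all). The share of promoters with the octamer was 5.1% among all promoters with an ESC Oct1 peak, 3.35% with a day 3 peak and 1.45% with a day 6 peak. With an ESC Oct4 peak it was 2.19%. Among promoters with a peak in the top 10% of scores it was 14.5% for ESC Oct1 (571 promoters), 14.3% for day 3 (398) and 5.36% for day 6 (839). For ESC Oct4 it was 2.96% (338). A match is a description of the sequence and not a bound site.

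With the full lists, the share of chromatin regulator genes with a peak in ESCs had an interval that included the share of all genes. In differentiating cells, by contrast, most of the regulator genes held an Oct1 peak, at day 6 usually at the start of the gene. Within 10 kb, an ESC Oct1 peak was present at 16 of 38 genes (42.1%, exact Clopper-Pearson 95% interval 26.3 to 59.2), where 35.2% of all protein-coding genes had one. For ESC Oct4 the count was 18 (47.4%, 31.0 to 64.2), beside 40.2% of all genes. At day 3 it was 26 (68.4%, 51.3 to 82.5) beside 24.6%, and at day 6 it was 34 (89.5%, 75.2 to 97.1) beside 41.5%. The intervals cover the counting of genes only. The day 3 list was the shortest of the 4, yet it held peaks at more of these genes than either ESC list. With every list shortened to that length, 10 genes had an ESC Oct1 peak (26.3%, beside 16.3% of all genes) and 7 one of ESC Oct4 (18.4%, beside 14.7%).

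At gene ends the contrast between the lists was wider. An ESC Oct1 peak lay there at 2 genes (5.26%, 0.644 to 17.7), beside 8.52% of all genes, and an ESC Oct4 peak at 3 (7.89%, 1.66 to 21.4), beside 8.91%. Day 3 Oct1 peaks lay at an end of 17 genes (44.7%, 28.6 to 61.7), beside 14% of all genes, and day 6 peaks at an end of 28 (73.7%, 56.9 to 86.6), beside 29.4%. Both ESC shares were near those of all genes, and both later shares were above them. Some gene-end peaks also lay at the end of a neighbouring gene, namely 1 of 2, 1 of 3, 5 of 17 and 11 of 28 for Oct1 and Oct4 in ESCs and for Oct1 at the later days. With only peaks at the end of no other gene, 12 genes at day 3 (7.77% of all genes) and 17 at day 6 (16.8% of all genes) had one.

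For the 31 genes with an annotated start site in the promoter table, the start could be told from the other end. A peak midpoint lay within 1 kb of a start site at 1 gene for ESC Oct1 (6.78% of 17492 genes), 1 for ESC Oct4 (5.49%), 13 at day 3 (14.8%) and 26 at day 6 (31.8%). The set's own shares were 3.23%, 3.23%, 41.9% and 83.9%. The median distance from the start to the nearest start-site peak was 60 bp in the day 3 list, beside 119 bp over all genes, and 128 bp in that of day 6, beside 83 bp. Those 5 genes with an annotated start but no day 6 peak there were Bcor, Rbbp5, Dpy30, Kdm5b and Kdm5c. Pcgf1, Rybp, Cbx2, Kdm6b, Kmt2b, Ash2l and Kdm5a were not counted for start sites.

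**Figure D1:**
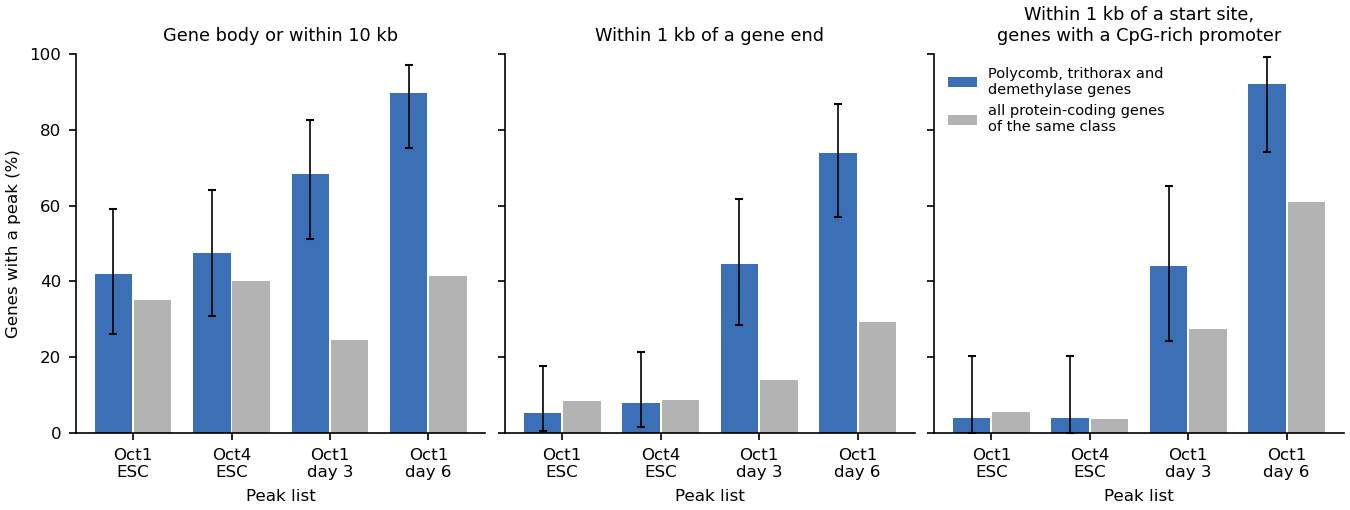
Share of genes (percent) with a peak in each of the 4 lists, for the chromatin regulator genes (blue, with exact 95% intervals) and for all protein-coding genes of the same class (grey). The panels show, from left to right, the gene body or 10 kb around it, the 1 kb around a gene end, and the 1 kb around a start site among genes with a CpG-rich promoter. The blue bars stand above the grey ones at day 3 and day 6 and near them in the ESC lists.

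Length and base composition also moved with these counts, so the same shares were taken among genes alike in each. The set had a median gene length of 38183 bp, against 17169 bp for all genes. Between its quartiles (20798 to 68888 bp), 7 of 18 genes of the set had an ESC Oct1 peak within 10 kb (40.3% of 6171 genes), 6 one of ESC Oct4 (45%), 13 one of day 3 Oct1 (28.4%) and 15 one of day 6 Oct1 (48.5%). Of the 31 genes with a start site, 25 had a CpG-rich promoter (GC at least 55%, observed over expected CpG at least 0.6). A start-site peak was listed at 1 of these 25 for ESC Oct1 (5.63% of 7713 such genes), 1 for ESC Oct4 (3.7%), 11 at day 3 (27.6%) and 23 at day 6 (61%). The set's shares were 44.0% (interval 24.4 to 65.1) in the day 3 list and 92.0% (74.0 to 99.0) in that of day 6. The distance from the share of all genes was therefore smaller among genes with a CpG-rich promoter, and the day 3 interval reached below 27.6%. In a gene with several starts, the counted peak could lie at a start that was not CpG-rich. This was so for the ESC Oct4 peak of Phc2 and the day 6 peak of Aebp2. The choice of this class was made after the data were seen.

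Peaks at the same positions were more often shared by the later Oct1 lists than by ESCs and a later list. An ESC Oct1 peak within 10 kb overlapped an ESC Oct4 peak at 12 genes (31.6%), beside 24.9% of all genes. At Kmt2d, which is counted here, the Oct4 peak itself lay beyond 10 kb. Overlapping day 3 and day 6 peaks lay at 25 genes (65.8%), beside 18.4%. An ESC Oct1 peak overlapped a day 6 peak at 9 genes (23.7%), beside 6.64%, and a day 3 peak at 6 (15.8%), beside 7.6%. In the gene body alone, each of these last counts was 2 genes (5.26%), beside 3.96% and 4.4% of all genes. At gene ends, all 17 genes with a day 3 peak also had a day 6 peak (86.1% of all genes did), and 60.7% of the set's genes with a day 6 peak had one at day 3 (40.9% of all genes). The remaining 11 genes with a day 6 peak were without one at day 3. Of the 28 genes with a day 6 peak at an end, 25 had no peak at an end in either ESC list, as did 83.5% of the 6444 genes with a day 6 end peak.

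**Figure D2:**
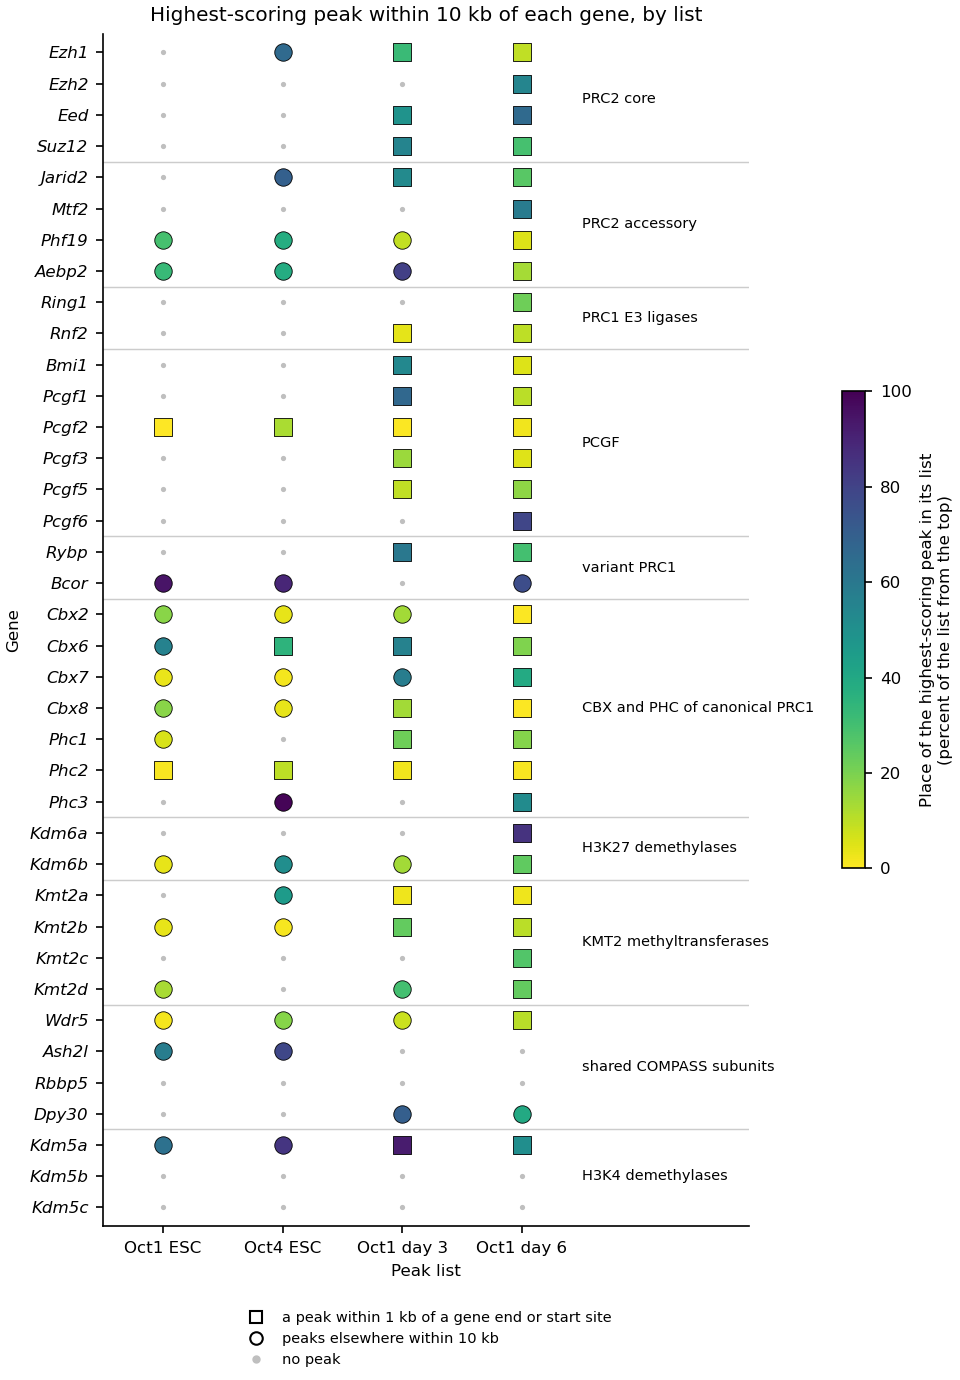
The 38 genes in rows, ordered by complex, against the 4 peak lists in columns. Colour gives the place of the gene's highest-scoring peak within 10 kb in its list (percent from the top), squares mark genes with a peak within 1 kb of a gene end or start site, circles peaks elsewhere and grey dots none. Squares are few in the ESC columns and fill most rows at day 6.

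The core of PRC2 had little in ESCs and a start-site peak at every gene by day 6. Ezh1 and Ezh2 are its alternative methyltransferases, Eed binds the methylated histone, and Suz12 holds the complex together. None of the 4 had an ESC Oct1 peak within 10 kb (35.2% of all genes had one), and only Ezh1 had ESC Oct4 peaks (40.2%). With 4 genes, these ESC counts are not shown to differ from the shares of all genes. The Ezh1 Oct4 peaks had scores of 106 and 114 (ranks 16431 and 15017 of 22817). They lay inside the gene, 1460 and 12195 bp from the nearer end. Suz12 had a day 3 peak of score 172 (rank 2663 of 4867) centred at -60 from its start. Its day 6 peak had a score of 816 (rank 2290 of 7758), centred at -90. At the start of Ezh1 the day 3 score was 289 (rank 1569) and the day 6 score 1454 (rank 729). The peaks at the start of Eed had a score of 200 (rank 2376) at day 3 and 341 (rank 5117) at day 6. Ezh2 had a peak at day 6 only, with a score of 455 (rank 4239), at an end shared with F830010H11Rik. Thus 3 of the 4 core genes had Oct1 at the start at day 3 (14.8% of all genes, 27.6% of those with a CpG-rich promoter) and 4 of 4 at day 6 (31.8% and 61%), with only the Ezh1 peak within the top 10% of a list.

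The accessory PRC2 genes, whose products steer the complex to its targets, all had a start-site peak at day 6 (31.8% of all genes, 61% of those with a CpG-rich promoter), but their other peaks were less uniform. Jarid2, a catalytically inactive Jumonji protein, had start-site peaks of score 181 (rank 2566) at day 3 and 890 (rank 2010) at day 6, and a second pair of overlapping peaks 2459 and 2504 bp after a start. Its single ESC Oct4 peak, of score 110, lay 9537 bp beyond the other end. Mtf2, a Polycomb-like protein, had a day 6 peak alone, at the start, with score 413 (rank 4547). Phf19, another Polycomb-like protein, had peaks in all 4 lists. Its highest later peak lay inside the gene, 8860 bp (day 3) and 8800 bp (day 6) after the start, with scores of 657 at day 3 (rank 450) and 1784 at day 6 (rank 407). At its start a day 6 peak of score 212 (rank 6121) was listed. The ESC Oct1 peak of Phf19 with the higher score (156, rank 5193) lay outside the gene and overlapped no other list. The other one (score 70) overlapped an ESC Oct4 peak of score 119, and the highest ESC Oct4 peak (score 158, rank 8648) overlapped a day 6 peak of score 70. Aebp2, a zinc-finger subunit, also had a peak in all 4 lists, none of which overlapped another. Its day 6 peak of score 1247 (rank 1057) lay 922 bp inside an annotated start, but 1131 bp from the gene end and so just outside the 1 kb limit.

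Among the PRC1 ligases, which ubiquitinate H2A, Rnf2 (Ring1b) and Ring1 (Ring1a) had no peak within 10 kb in either ESC list. Of all genes, 35.2% had one for ESC Oct1 and 40.2% for ESC Oct4. A start-site peak was listed at 14.8% of all genes at day 3 and 31.8% at day 6. Among genes with a CpG-rich promoter these shares were 27.6% and 61%. With 2 ligase genes, no difference from these shares is shown. The start of Rnf2 had a score of 1131 at day 3 (rank 197 of 4867) and of 1429 at day 6 (rank 765 of 7758). The Ring1 start had a day 6 peak only, with a score of 985 (rank 1714). In the list order, Rnf2 stood nearer the top at day 3 than at day 6.

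The 6 PCGF genes encode the partners of these ligases that define the PRC1 subtypes. Of them, 1 had an ESC Oct1 peak within 10 kb (35.2% of all genes), 1 an ESC Oct4 peak (40.2%), 5 Oct1 at day 3 (24.6%) and 6 at day 6 (41.5%). The exception in ESCs was Pcgf2 (Mel18), whose end lay beside one of the highest ESC Oct1 peaks, with a score of 17155 (rank 22 of 17709) at chr11:97702901-97703790. The same site ranked 34 at day 3 (score 6668) and 163 at day 6 (score 2468), whereas the ESC Oct4 peak there had a score of 148 and rank 10346 of 22817. Its midpoint in the ESC Oct1 list lay 911 bp outside Pcgf2 but at -3697 from the annotated Pcgf2 start, and it also fell at the start of Psmb3 and at an end of n-TNgtt8, a transfer RNA gene. The Psmb3 sequence with ATGCATAT printed above is the one under this peak, so the peak cannot be given to one of these genes. At the annotated Pcgf2 start itself only a day 6 peak of score 175 (rank 6418) was listed. Elsewhere within 10 kb, Pcgf2 had ESC Oct1 peaks of score 53, 133 and 166. They overlapped ESC Oct4 peaks of score 130, 250 (rank 2912) and 209, in that order. Another day 6 peak, of score 1325 (rank 912), lay 2990 bp outside the gene at ends of Cisd3 and Mllt6.

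The other PCGF genes had no peak in ESCs. Bmi1 (Pcgf4) had a start-site peak of score 179 at day 3 (rank 2590) and 1759 at day 6 (rank 419), next to an end of Commd3. For Pcgf3, a subunit of variant PRC1, the start-site scores were 478 (rank 735) and 1813 (rank 387). Pcgf5, its close relative, had peaks at an internal start site only, far from the gene's ends, with scores of 635 at day 3 (rank 468) and 1132 at day 6 (rank 1303). Pcgf1, which joins Bcor and Kdm2b in variant PRC1, had peaks 918 and 968 bp inside its end, just within the limit, with scores of 129 (rank 3245) and 1397 (rank 807). Pcgf6 had a single peak, at its start at day 6, of score 209 (rank 6136). By the highest day 6 peak of each, these 5 genes, without Pcgf2, stood between 4.99% (Pcgf3) and 79.1% (Pcgf6) from the top of the list.

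Rybp and Bcor belong to variant PRC1, Rybp as a ligase cofactor and Bcor as the corepressor partner of Pcgf1. Rybp had overlapping peaks at 1 end, of score 152 (rank 2919) at day 3 and 811 (rank 2311) at day 6. Bcor, on the X chromosome, had only internal peaks, with scores of 44 for ESC Oct1, 77 for ESC Oct4, and 93 and 237 at day 6, all low in their lists.

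The CBX and PHC genes of canonical PRC1 were the group with the most peaks in ESCs. CBX proteins read the methylated lysine 27 and PHC proteins polymerise PRC1. Of 7 genes, 6 had an ESC Oct1 peak within 10 kb (35.2% of all genes), 6 an ESC Oct4 peak (40.2%), 6 Oct1 at day 3 (24.6%) and 7 at day 6 (41.5%). The gene-end counts were 1, 2, 4 and 6, beside 8.52%, 8.91%, 14% and 29.4% of all genes. Phc2 and Cbx7 together held 11 of the 17 ESC Oct1 peaks and 14 of the 21 ESC Oct4 peaks counted by gene. Most ESC peaks therefore lay away from the ends.

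Phc2 had the clearest lasting Oct1 site at its own start. The ESC Oct1 peak there, at chr4:128654361-128654970, had a score of 1964 (rank 166 of 17709), the day 3 peak 2059 (rank 103 of 4867) and the day 6 peak 3316 (rank 72 of 7758). Their midpoints lay at -36, 3 and 93 from the start, close to the ATGCTAAT shown above. No ESC Oct4 peak lay there. Inside the gene, Phc2 had 6 further ESC Oct1 peaks with scores up to 242, of which 3 overlapped an ESC Oct4 peak. The Oct1 peak of score 242 overlapped an Oct4 peak of score 217 (rank 4102), and one of score 75 overlapped an Oct4 peak of score 271 (rank 2247). The second start, which carries the octamer, had an ESC Oct4 peak 632 bp away (score 147, rank 10366) and no Oct1 peak within 1 kb, and another start, further downstream, had a day 6 peak of score 882 (rank 2036).

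Cbx2 and Cbx8 are neighbours and share peaks. At the start of Cbx8 the day 3 score was 510 (rank 675), and the day 6 peak, at chr11:119040491-119041820, reached 3924 (rank 56 of 7758), nearer the top of that list than any other peak of the set. Neither ESC list had a peak at that start, and the same peaks counted for Cbx2 because they lay within 10 kb of it. In ESCs the genes shared an intergenic peak of score 222 for Oct1 (rank 3159) and 358 for Oct4 (rank 885), which a day 6 peak of score 235 (rank 5973) overlapped. Cbx2 had in addition a day 6 peak of score 1615 (rank 541) at an end shared with Gm35829.

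At Cbx7, the CBX protein of pluripotent ESCs, the leading site lay outside the gene, 8898 bp from its end in the ESC Oct1 list. All 4 lists held it, but at very different places. It had a score of 658 for ESC Oct1 (rank 592 of 17709) and 449 for ESC Oct4 (rank 386 of 22817), then 160 at day 3 (rank 2823 of 4867) and 42 at day 6 (rank 7744 of 7758). At the Cbx7 start itself a day 6 peak of score 656 (rank 3030) was listed. This order was the reverse of that at Cbx8, where the peak stood nearest the top at day 6.

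Cbx6 had internal or flanking peaks in ESCs, with Oct1 scores of 89 and 98 (list median 106) and an Oct4 score of 168 (list median 143), the Oct4 midpoint lying 767 bp beyond the far end of the gene. Its start, shared with an end of Npcd, had peaks of score 169 at day 3 (rank 2701) and 1061 at day 6 (rank 1489). Phc1 had start-site peaks of score 381 (rank 1082) and 1082 (rank 1434). Its ESC Oct1 peak of score 424 (rank 1098) lay 9010 bp away at an end of M6pr. Phc3 had a start-site peak at day 6, of score 485 (rank 4044), and an ESC Oct4 peak of score 47.

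**Figure D3:**
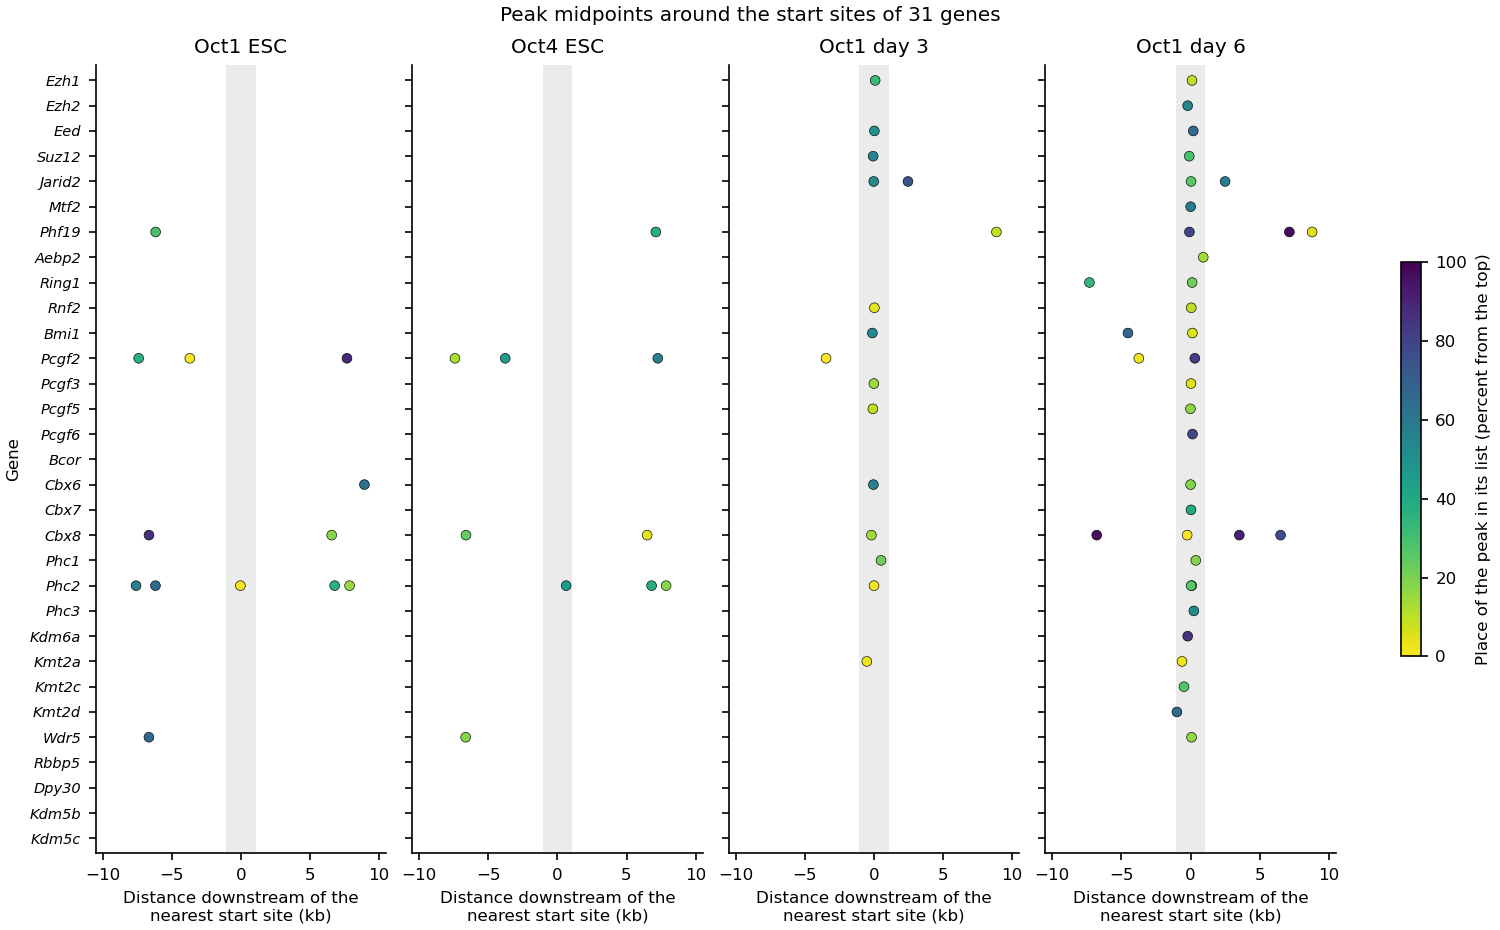
Peak midpoints around the nearest start site of the 31 genes with an annotated start, 1 panel per list. The x axis gives the distance downstream of the start in kb (10 kb to either side), each point is 1 peak coloured by its place in its list, and the grey band spans 1 kb either side of the start. The band holds points at 1 gene in each ESC panel (Phc2), 13 at day 3 and 26 at day 6.

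The demethylases of lysine 27 differed from each other. Kdm6a (Utx), on the X chromosome, had a single peak in all 4 lists together, at day 6, at chrX:18162041-18162700, with a score of 156 (rank 6616 of 7758). It lay at -204 from the annotated start and 1508 bp from the gene end. Kdm6b (Jmjd3) had, within 10 kb, 1 peak of Oct1 and 2 of Oct4 in ESCs, then 2 of Oct1 at day 3 and 8 at day 6. One internal Kdm6b site recurred in the 3 Oct1 lists, with scores of 609 (rank 658) in ESCs, 510 (rank 675) at day 3 and 371 (rank 4873) at day 6. Its day 6 peak nearest an end, of score 297, lay at ends shared with Dnah2 and Gm51903. Of the 3 X-linked genes, Bcor, Kdm6a and Kdm5c, 0 had a peak at a gene end in any list, where 3.73% (ESC Oct1), 2.38% (ESC Oct4), 5.49% (day 3) and 12.3% (day 6) of 966 X-linked genes had one. With 3 genes, 0 allows a share of up to 70.8% (exact 95% interval), and of the 5 X-linked genes in the wider pathway list 1 had an end peak at day 3 and 4 at day 6.

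All 4 KMT2 methyltransferase genes had a gene-end peak at day 6 (29.4% of all genes), 2 of them at day 3 (14%), and 0 in the ESC lists (8.52% for Oct1 and 8.91% for Oct4). Kmt2a (Mll1) had the highest scores, 1668 at day 3 (rank 130 of 4867) and 2333 at day 6 (rank 195 of 7758), in wide peaks centred at -516 and -616 from its start. Kmt2b (Mll2) had end peaks of score 360 (rank 1168) and 1393 (rank 813), at an end shared with Zbtb32, Gm32082 and Mir3569. Another peak site, near Lin37, had scores of 436 for ESC Oct1 (rank 1068), 173 for ESC Oct4 (rank 7442) and 330 at day 3 (rank 1333). A further site, 5414 bp outside Kmt2b at the starts of Psenen and U2af1l4, was in all 4 lists, with scores of 602 for ESC Oct1 (rank 670), 494 for ESC Oct4 (rank 286), 125 at day 3 (rank 3284) and 1262 at day 6 (rank 1023). Kmt2c and Kmt2d, the enzymes of enhancers, had gene-end peaks at day 6 only, of score 859 (rank 2119) and 261 (rank 5744), each shared with a neighbouring gene (4831440E17Rik and Prkag1). The Kmt2d peak was at the far end of the gene, and its start had a day 6 peak of score 346 at -985. Kmt2d also had an ESC Oct1 peak of score 269 whose midpoint lay 10113 bp from the gene and whose edge alone fell within 10 kb.

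Of the 4 subunits common to the COMPASS complexes, 2 had a peak within 10 kb in each list (35.2%, 40.2%, 24.6% and 41.5% of all genes for ESC Oct1, ESC Oct4, day 3 and day 6 in turn). Wdr5, which presents the histone tail, had a day 6 peak of score 1139 (rank 1286) at its start. A site 3725 bp beyond its other end, at an end of Gm13421 and Gm25541, was in the 3 Oct1 lists, with scores of 1176 (rank 287), 701 (rank 397) and 1379 (rank 833), and had no Oct4 peak. On the other side of Wdr5, near Brd3, an ESC Oct4 peak of score 217 (rank 4102) overlapped an ESC Oct1 peak of score 80 (rank 11711). Ash2l had 1 low internal peak in each ESC list, of score 90 for Oct1 and 94 for Oct4, and none later. Dpy30 had a peak only near the start of Memo1, 4348 bp away, of score 118 at day 3 (rank 3406) and 648 at day 6 (rank 3079). Rbbp5 had no peak in any list.

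Of the lysine 4 demethylases, Kdm5b and Kdm5c also had no peak in any list. Kdm5a had overlapping gene-end peaks of score 59 (rank 4497) and 495 (rank 3968), at an end shared with the start of Ccdc77, and a pair of overlapping ESC peaks 9916 and 9896 bp away, of score 89 for Oct1 and 84 for Oct4. Rbbp5, Kdm5b and Kdm5c were thus the 3 genes of 38 without a peak anywhere (36.5% of all genes). At the other extreme, 12 genes had a peak within 10 kb in all 4 lists (9.18% of all genes): Phf19, Aebp2, Pcgf2, Cbx2, Cbx6, Cbx7, Cbx8, Phc2, Kdm6b, Kmt2b, Wdr5 and Kdm5a.

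The places of the gene-end sites in the day 3 and day 6 lists were then set side by side. Of the 17 genes with an end peak at both days, 14 (82.4%, 56.6 to 96.2) stood nearer the top of the day 6 list, and Eed, Rnf2 and Pcgf2 nearer the top at day 3. Among the 2634 genes with both, 69.1% stood nearer the top at day 6, which lies within that interval. The 17 genes had a median place of 10.4% from the top of the day 6 list, and the 11 genes with an end peak at day 6 alone had 54.6%. This split was not taken over all genes, so the gap is not shown to be particular to the set. Over all genes with a day 6 end peak the median place was 41.7%, against 20.6% for the set. At day 3 the medians were 38.5% for all genes and 32.2% for the set. The widest gaps in place were those of Pcgf1, from 66.7% to 10.4%, and Bmi1, from 53.2% to 5.40%. Ranks from lists of different lengths are places within a list and show no change in binding.

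**Figure D4:**
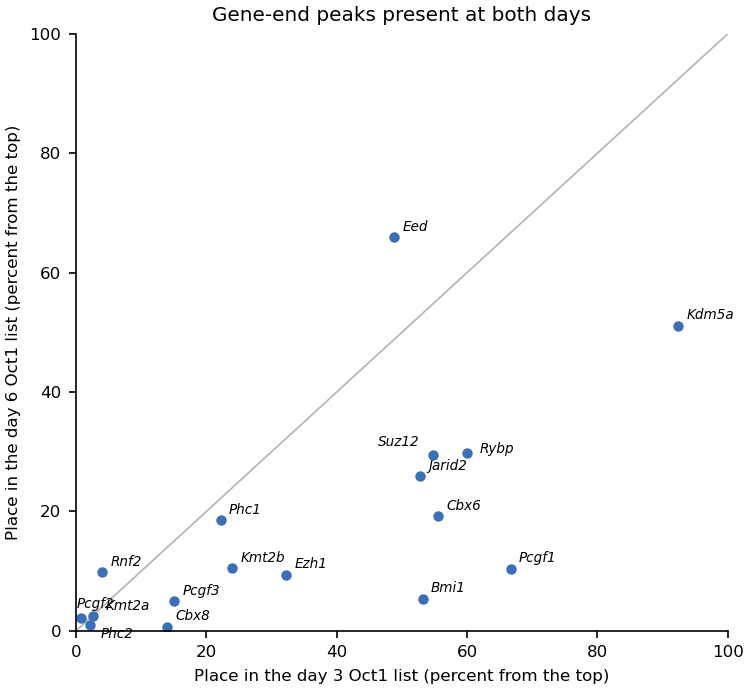
Place of the gene-end peak in the day 3 list (x axis) and the day 6 list (y axis), in percent from the top, for the 17 genes with a peak at both days. Points below the grey line stood nearer the top at day 6, which held for 14 genes, and Eed, Rnf2 and Pcgf2 lie above it.

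High scores were spread over several complexes. A peak in the top 10% of a list lay within 10 kb of 7 of the 38 genes for ESC Oct1 (7.37% of all genes) and 5 of 38 for ESC Oct4 (7.91%). At day 3 it was 7 of 38 (3.04%) and at day 6 10 of 38 (5.56%). In each list, also in ESCs, the share of the set was above that of all genes, and no interval was taken. Over the 4 lists together these were 16 of the 38 genes, beside 16.6% of all genes. A peak in the top 1% of a list lay at 4 of the 38 genes, beside 1.93% of all genes. These were Cbx2, Cbx8, Pcgf2 and Phc2, and the Cbx2 peak was that at the Cbx8 start.

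A further 35 genes of the same pathways, among them Rbbp4, Kdm2b, Setd1a, Kdm1a and Bap1, were counted in the same ways. Within 10 kb, 12 had an ESC Oct1 peak (34.3%), 15 one of Oct4 (42.9%), 23 one of Oct1 at day 3 (65.7%) and 31 at day 6 (88.6%). At gene ends the counts were 3, 3, 13 and 27 (8.57%, 8.57%, 37.1% and 77.1%). As in the 38 genes, the ESC shares were near those of all genes given above and the later shares above them, while the share of all genes with an end peak was itself higher at day 6 than in ESCs. Kdm2b, whose product brings variant PRC1 to CpG islands, had a peak at the internal start printed above with rank 4 in ESCs (score 88299), rank 4 at day 3 (score 67255) and rank 2 at day 6 (score 28086). The table holds another start close by, and the midpoints lay at -53, -38 and 54 from the nearer of the pair. No Oct4 peak overlapped this site. Kdm1b, a demethylase of lysine 4, had a start-site peak shared with Tpmt, of score 1126 at day 3 (rank 198) and 3505 at day 6 (rank 64).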

How the data were processed

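Per the submitters' processing notes, the aligner Novoalign 3.8.2 and the build mm10 (GRCm38) were used. The authors deposited 1 peak list per library, each peak with a score without unit. Peak caller, threshold and use of the inputs are not given in the sources used here, and exon or intron position was not determined.

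The genes, complexes and lists were chosen with earlier results of these data known. Each library formed its own group by source name. Genes and start sites came from RefSeq (GRCm38.p6). A gene counted as holding a peak by an overlap of at least 1 bp with the gene extended by 10 kb, or by a peak midpoint within 1 kb of a gene end or start site. All 38 genes are accounted for, and values are given for those with a peak in all 4 lists, in the top 10% of a list, at ends in all Oct1 or both ESC lists, and for Kdm6a and PRC2 core. Other pathway genes are named when in the top 1%. Psmb3 was chosen after its values were seen. Counting used Python 3.11.15 with numpy 2.4.6, pandas 2.3.3 and scipy 1.17.1, was tested on simulated data with planted peaks, and overlaps were checked with bedtools 2.31.1. Figures used matplotlib 3.10.9. Alternatives varied the window, the distance, the peaks kept and the overlap. No test was made.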

Additional observations from a re-analysis of the deposited data

How the results depend on the processing

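In all, 12 counts were recomputed, giving 56 alternative values, of which 36 stayed within 1.5 times. Shares of all genes follow each count in parentheses. Counting only the gene body gave 8 genes for ESC Oct1 (23.9%) and 11 for ESC Oct4 (28.0%), and overlapping peaks at 5 genes for ESC Oct1 with Oct4 (16.8%), 2 for ESC Oct1 with day 6 (3.96%) and 2 for ESC Oct1 with day 3 (4.4%). The excess of the set in the last pairs was therefore small in the gene body. Keeping the 50% of peaks with the higher scores gave 11 genes for ESC Oct4 (26.8%) and 16 at day 3 (15.0%) within 10 kb, and 10 at day 3 gene ends (9.17%). The overlaps were then 6 for ESC Oct1 with Oct4 (13.6%), 14 for day 3 with day 6 (11.0%) and 5 for ESC Oct1 with day 6 (2.89%). Shortening every list to 4867 peaks gave 10 genes for ESC Oct1 (16.3%) and 7 for ESC Oct4 (14.7%) within 10 kb, and 0 for Oct4 at gene ends (2.44%). Within 500 bp of an end there was 1 gene for ESC Oct1 (5.89%) and 0 for Oct4 (5.25%), and within 5 kb 8 (19.2%) and 9 (23.2%). Peaks at the end of no other gene, an alternative added after seeing the data, gave 1 for ESC Oct1 (5.88%) and 17 at day 6 (16.8%). These alternatives keep fewer peaks or change the area by construction. The day 6 gene-end count lay between 17 and 31, with 23 of 38 (21.3%) when the lists had equal length. No paired analysis was possible because each group held 1 library. Depth is unknown, so a missing peak is not shown to be absent binding.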
